A study of Mus musculus with 27 samples.

Results

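Homeostatic microglia genes, which mark microglia at rest, were followed in the retina of mice with oxygen-induced retinopathy (OIR). They were P2ry12, P2ry13, Gpr34, Cx3cr1, Tmem119, Siglech, Fcrls, Sall1 and Olfml3. The 9 members were taken by symbol from a list of such genes, and all 9 were found among the 40129 genes of the table. Whole retinas of wild-type (WT) C57BL/6 mice (C57BL/6J in the study's methods) were sequenced, with 1 library per mouse made from a single retina or from both. OIR mice were kept in 75% oxygen from day 7 to day 12 after birth and then returned to room air, and untreated mice of the same age (nOIR) served as controls. The groups were nOIR p14 (n = 6), OIR p14 (n = 6), nOIR p17 (n = 6) and OIR p17 (n = 8), where p14 and p17 are the days after birth. The comparisons asked how the retina differs between OIR and nOIR at each age, and whether that difference itself differs between p14 and p17.

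Microglia are the resident macrophages of the retina and the brain. In the healthy tissue they carry branched processes that survey their surroundings, and they express a set of receptors, surface proteins and regulators that is commonly called homeostatic. Several of these genes are known to be lowered when microglia become activated, whereas general macrophage genes stay on. P2ry12, P2ry13 and Gpr34 encode related G protein-coupled receptors for nucleotides or lipids, and Cx3cr1 encodes the receptor for fractalkine, a chemokine made by neurons. Tmem119, Siglech and Fcrls encode surface proteins, Sall1 encodes a transcription factor that maintains microglial identity, and Olfml3 encodes a secreted matrix protein.

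Recovered depth ranged from 17029536 to 33593428 reads per mouse with a median of 30182576, and all 9 members were above 0 in all 26 mice. A further nOIR p14 mouse (S4) was left out, as the study did for its lens transcripts, and its effect on the results was computed separately. The tissue carried its own markers, since the summed level of 4 rod photoreceptor genes lay between 826400 and 1535000 normalized reads in every mouse. In whole tissue, fewer cells of a type and less RNA per cell cannot be told apart. The study's methods give fewer litters than mice for every group, so some mice of a group were littermates. The litter of each mouse is not in the labels, so all p-values, including the permutation p-values, take the mice as independent. A gene was called where limma, fitted to the 27137 genes whose mean reached 1 normalized read, gave a Benjamini-Hochberg adjusted p under 0.05.

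Fcrls and Cx3cr1 were higher in OIR than in nOIR retinas at p17, and these were the only members called among 9. Fcrls was higher by a log2 fold change of 2.98 and Cx3cr1 by 1.62. The other 7 members did not pass the test at p17, and none of the 9 passed it at p14. At p17, 7.39% of all genes tested were called higher and 5.12% were called lower, against 2 and 0 of the 9 members. At p14, 3.18% of all genes were called higher and 2.91% lower, against 0 and 0 members, with 3 members at an unadjusted limma p under 0.05 (P2ry12, Cx3cr1 and Fcrls), as were 4608 of the 27137 genes tested. On the same p14 reads edgeR called 0 members and DESeq2 called 1, Fcrls. The median log2 fold change of the 9 members was -0.02 at p14 and 0.48 at p17, beside medians of 0.02 and -0.02 over all genes tested.

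**Figure D1:**
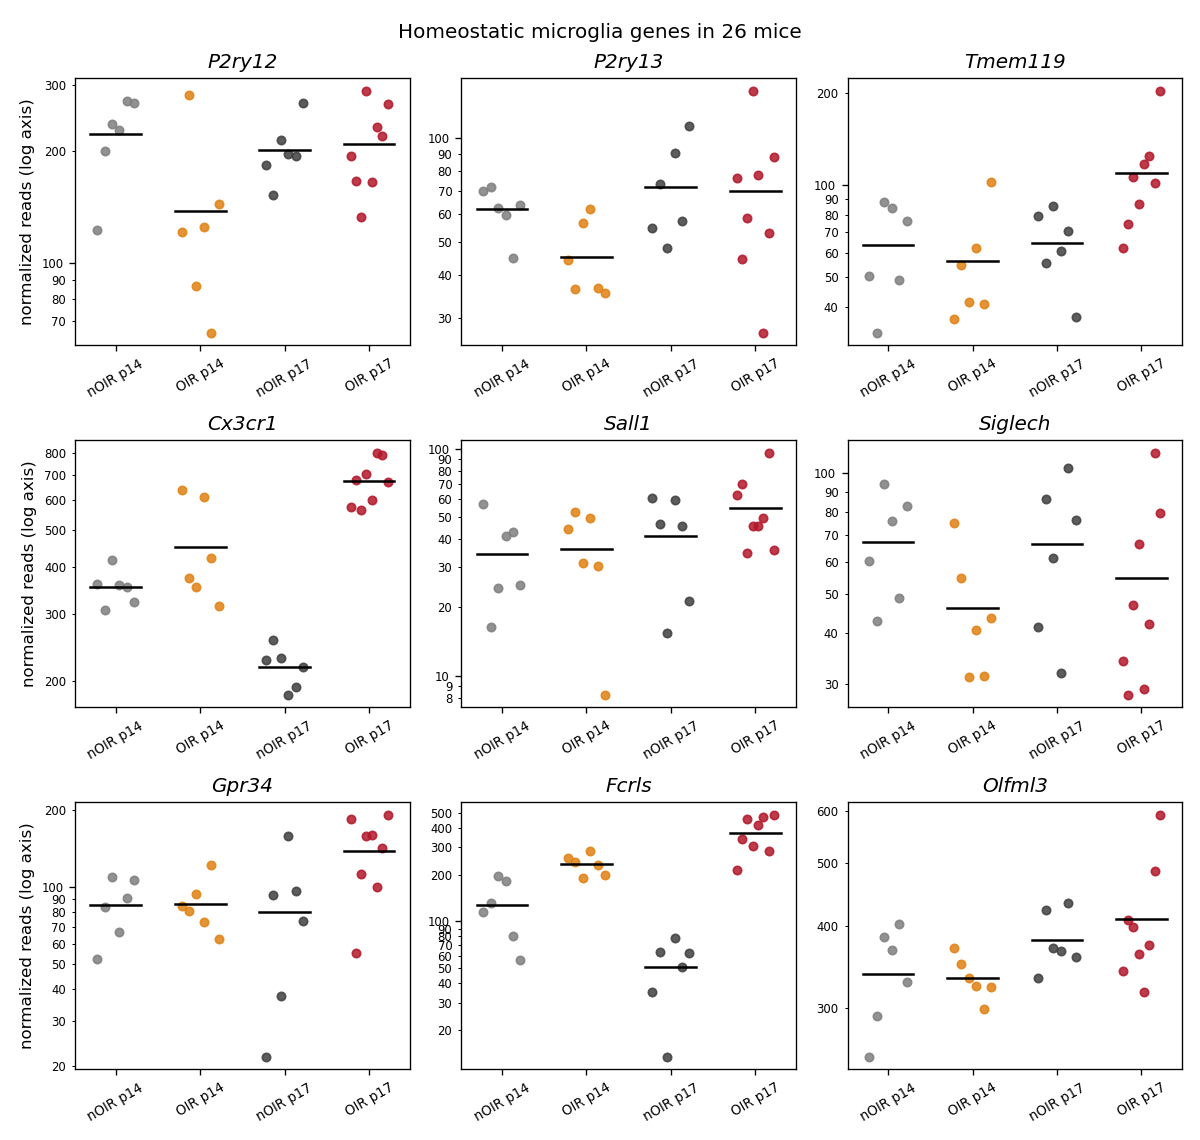
Normalized reads (log axis) of the 9 genes in each of 26 mice, by group, with 1 point per mouse and a line at the group mean. Fcrls and Cx3cr1 of the 8 OIR p17 mice lie above those of all 6 nOIR p17 mice, while P2ry12, P2ry13, Siglech and Olfml3 of the same mice overlap with the controls.

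The start regions of 4 members are shown because they contrast the pair that was called at p17 with the pair of neighbouring purine receptor genes that was not. Each is the window of 250 bases before to 50 bases after the gene start from the RefSeq tables (build GRCm38.p6), written 5′ to 3′ on the gene's own strand, with the core motif GAGGAA of the myeloid factor PU.1 in capitals. Fcrls lies at chr3:87263475-87263774, Cx3cr1 at chr9:120068247-120068546, P2ry12 at chr3:59262936-59263235 and P2ry13 at chr3:59210833-59211132, all on the minus strand.
Fcrls: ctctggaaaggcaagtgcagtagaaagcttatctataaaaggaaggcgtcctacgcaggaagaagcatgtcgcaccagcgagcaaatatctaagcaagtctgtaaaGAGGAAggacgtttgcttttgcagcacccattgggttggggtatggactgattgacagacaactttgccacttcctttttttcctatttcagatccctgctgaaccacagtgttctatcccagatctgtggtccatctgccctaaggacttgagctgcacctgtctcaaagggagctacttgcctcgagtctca
Cx3cr1: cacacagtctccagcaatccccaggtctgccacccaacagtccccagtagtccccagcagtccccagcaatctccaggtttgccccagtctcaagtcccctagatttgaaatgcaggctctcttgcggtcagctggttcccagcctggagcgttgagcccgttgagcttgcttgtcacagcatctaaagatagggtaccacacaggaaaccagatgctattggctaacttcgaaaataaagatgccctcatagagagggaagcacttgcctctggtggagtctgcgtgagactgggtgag
P2ry12: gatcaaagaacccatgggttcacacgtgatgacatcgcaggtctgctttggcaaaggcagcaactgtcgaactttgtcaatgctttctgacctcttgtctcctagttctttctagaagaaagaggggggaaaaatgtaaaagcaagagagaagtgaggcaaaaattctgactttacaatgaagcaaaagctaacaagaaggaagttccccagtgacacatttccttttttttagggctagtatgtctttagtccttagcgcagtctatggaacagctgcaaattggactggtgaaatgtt
P2ry13: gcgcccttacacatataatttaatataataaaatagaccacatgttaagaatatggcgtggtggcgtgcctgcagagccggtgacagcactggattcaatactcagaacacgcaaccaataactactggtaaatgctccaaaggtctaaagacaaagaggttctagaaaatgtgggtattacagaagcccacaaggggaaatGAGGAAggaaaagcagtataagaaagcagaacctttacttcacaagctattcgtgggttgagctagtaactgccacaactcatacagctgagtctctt

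A RefSeq window was matched for 7 of the 9 members, with 9 windows in all. The letters GAGGAA, searched on both strands, were found in the windows of Fcrls, P2ry13 and Siglech and in none of those of P2ry12, Cx3cr1, Sall1 and Olfml3. They were also found in 28.3% of all 32817 promoter windows of this length. The longer PU.1 motif GAGGAAGT, which contains the core, was in no member window and in 3.2% of all windows. The SMAD motif CAGACA was found in the windows of Fcrls and Siglech and in 21.0% of all windows. The SMAD palindrome GTCTAGAC was in no member window and in 0.213% of all windows, and neither of a pair of longer MEF2 motifs, searched on both strands and found in 0.165% and 0.11% of all windows, was in a member window. A core motif was thus present in a gene that was called at p17 (Fcrls) and in genes that were not (P2ry13 and Siglech), and absent from the window of another that was called (Cx3cr1).

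Fcrls, an Fc receptor-like protein found on resting microglia of the mouse, showed the widest separation of the members. At p17 it lay between 13.4 and 78.3 normalized reads in the 6 nOIR mice, with a median of 56.9, and between 214.7 and 488 in the 8 OIR mice, with a median of 378. The lowest OIR mouse was therefore well above the highest control. The group means were 50.7 ± 23.2 (SD, n = 6) and 372 ± 100.3 (SD, n = 8), and the log2 fold change was 2.98 (SE 0.30, 95% confidence interval 2.38 to 3.59), a 7.91-fold difference with a limma adjusted p of 1.08e-08. The exact two-sided permutation p was 0.000666, the smallest that 8 against 6 mice can give. Fcrls was also the only member past the study's threshold for differentially expressed genes (a log2 fold change above 2), which 1.9% of all genes passed upward.

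At p14 Fcrls ranged from 56.5 to 196.3 in nOIR mice with a median of 123, and from 189.6 to 282 in OIR mice with a median of 238. All 6 OIR mice were above the control median, and 1 nOIR mouse (S3, 196.3) overlapped the lowest OIR mouse. The log2 fold change of 0.99 (SE 0.32) had a limma adjusted p of 0.0632 and did not pass, although the exact two-sided permutation p for this single gene was 0.00433. It passed under DESeq2 (adjusted p 0.0265), with mouse S4 included (0.0333), in a fit of only the groups compared (0.0359) and with each mouse rescaled to the same total (0.0453). It also passed without nOIR p14 mouse S3 (adjusted p 0.0362), without nOIR p14 mouse S5 (0.0457) or without nOIR p17 mouse S3 (0.0159). The p14 difference of Fcrls was therefore near the threshold, and its call depended on the setting and on single mice.

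For Cx3cr1 at p17 the 6 nOIR mice lay between 184.2 and 256 normalized reads, with a median of 222.5, and the 8 OIR mice between 563 and 800.2, with a median of 673. The ranges did not overlap, and the log2 fold change was 1.62 (SE 0.14, 95% confidence interval 1.335 to 1.899), a 3.07-fold difference with a limma adjusted p of 5.79e-10 and an exact permutation p of 0.000666. At this age 3.9% of all genes had every OIR mouse above every nOIR mouse, as 2 of the 9 members did.

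At p14 Cx3cr1 ranged from 307 to 418 in nOIR mice and from 316 to 637 in OIR mice. OIR mice S1 (637) and S4 (609) lay above all controls, and the other 4 lay between 316 and 423, within or just above the control range. This difference, 0.31 on the log2 scale (SE 0.15), did not pass (limma adjusted p 0.279). In the annotation used for lengths 78 of the 4505 exon bases of Cx3cr1 are shared with the gene model Gm33858, and the reads were counted without strand, so reads from these bases cannot be told apart.

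P2ry12, the ADP receptor that guides microglial processes to sites of injury, had its largest difference at p14 and not at p17. The 6 nOIR p14 mice had 123 (S1), 199.3 (S2), 236 (S3), 228 (S5), 272 (S6) and 269 (S7) normalized reads, and the 6 OIR p14 mice had 121 (S1), 282 (S2), 86.7 (S3), 125 (S4), 64.9 (S5) and 144 (S6). OIR mouse S2 was the highest of these 12 mice, while the other 5 OIR mice were below every control except nOIR mouse S1. The log2 fold change was -0.79 (SE 0.26, 95% confidence interval -1.32 to -0.27), with a limma adjusted p of 0.0636 and an exact two-sided permutation p of 0.0541, and it was not called. Without OIR mouse S2 it was -1.03 with an adjusted p of 0.00443, and without nOIR mouse S1 it was -0.95 with an adjusted p of 0.0206, so that the call rests on which of these mice is kept.

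At p17 P2ry12 lay between 151.9 and 269 in nOIR mice and between 133 and 289.8 in OIR mice, with medians of 195.1 and 206. The groups overlapped throughout, and the log2 fold change was 0.03 with a 95% confidence interval of -0.46 to 0.51, so a difference of the size seen for Cx3cr1 lay outside the interval. P2ry12 shares 9 of its 2546 exon bases with Med12l, within which the gene lies; Med12l itself was not called at p14 (log2 fold change 0.03) or p17 (-0.30).

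P2ry13, the neighbour of P2ry12 and a second ADP receptor, showed the same order at p14 with smaller values. It lay between 44.8 and 72.2 in nOIR mice and between 35.4 and 62.1 in OIR mice, and all 6 OIR mice were below the control median of 63.3. The log2 fold change of -0.47 (SE 0.28) was not called (limma adjusted p 0.438), and the exact two-sided permutation p for the single gene was 0.0216. At p17 the OIR mice spread from 27.3 to 137 around the nOIR range of 48.0 to 108, with a log2 fold change of -0.12 (95% confidence interval -0.66 to 0.43).

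Gpr34, a receptor for lysophosphatidylserine, had p14 means of 84.8 ± 22.4 (SD, n = 6) in nOIR and 86.1 ± 20.7 (SD, n = 6) in OIR mice. At p17 it lay between 21.6 and 158.8 in nOIR mice and between 55.4 and 192.3 in OIR mice, and 7 of 8 OIR mice were above the control median of 83.1. The log2 fold change of 0.95 (SE 0.32) lay at the threshold, with a limma adjusted p of 0.0502. It passed without nOIR p17 mouse S4, the highest control (log2 fold change 1.20, adjusted p 0.00989), and without OIR p17 mouse S2, the lowest OIR mouse (1.13, adjusted p 0.0132). It also passed without nOIR p14 mouse S1 or nOIR p17 mouse S2 or S5 (adjusted p 0.0416 to 0.0485), as well as with a filter at a mean of 10 (adjusted p 0.04), with mouse S4 included (0.0487) and with each mouse rescaled to the same total (0.033). Under the other settings its adjusted p was up to 0.142, and over all mice left out in turn the adjusted p reached at most 0.187.

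Tmem119, a membrane protein used to tell microglia from blood-derived macrophages, lay between 32.9 and 88.0 in nOIR p14 mice and between 36.4 and 102 in OIR p14 mice. At p17 it lay between 37.2 and 85.5 in nOIR and between 62.2 and 203 in OIR mice, with medians of 65.6 and 103.6. OIR mouse S8 was far above the rest at 203, and 7 of 8 OIR mice were above the control median. A log2 fold change of 0.71 (SE 0.27) was not called by limma (adjusted p 0.0896), whereas DESeq2 gave 0.76 with an adjusted p of 0.0395. It also passed in limma without OIR p17 mouse S1 (0.81, adjusted p 0.0443).

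Siglech, a sialic acid-binding lectin, had the lowest p17 estimate of the members. Its levels lay between 43.0 and 94.1 in nOIR p14, 31.3 and 75.1 in OIR p14, 32.0 and 103 in nOIR p17, and 28.2 and 112.5 in OIR p17 mice. The log2 fold changes were -0.55 (SE 0.33) at p14 and -0.33 (SE 0.31) at p17, with limma adjusted p-values of 0.434 and 0.602. All 4 groups overlapped, and the medians of 42.2 and 44.6 in OIR mice stood beside 68.3 and 69.0 in nOIR mice.

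Sall1 was the member with the fewest reads, between 8.24 and 96.0 per mouse. Its log2 fold changes of -0.02 (SE 0.40) at p14 and 0.48 (SE 0.37) at p17 had the widest intervals of the members, from -0.83 to 0.80 and from -0.28 to 1.25, so a moderate difference in either direction was not detectable at p14. Olfml3 stood at the other end. It had 252 to 402 reads in nOIR p14, 298 to 369.9 in OIR p14, 333.5 to 433 in nOIR p17 and 317 to 592 in OIR p17 mice, with intervals of the log2 fold change of -0.28 to 0.27 at p14 and -0.17 to 0.34 at p17. Neither gene was called.

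**Figure D2:**
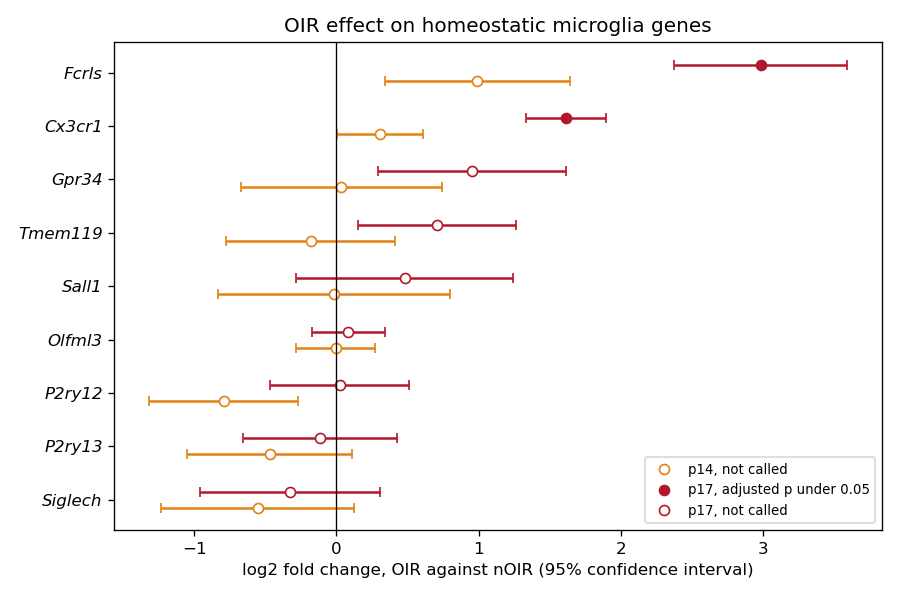
Log2 fold change of OIR against nOIR with its 95% confidence interval for the 9 genes at p14 and p17; filled points have a limma adjusted p under 0.05. The p17 points of Fcrls (2.98) and Cx3cr1 (1.62) are filled, and the lowest point is P2ry12 at p14 (-0.79).

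The OIR effects at p17 and at p14 were then compared in the same fit. The difference was above 0 for all 9 members, as for 47.7% of all genes, with a median of 0.82 beside -0.02 over all genes, and it was called for 2, Fcrls and Cx3cr1, against 1.43% of all genes called higher. For Fcrls the effect at p17 exceeded that at p14 by 1.99 (SE 0.44, limma adjusted p 0.0105), and for Cx3cr1 by 1.31 (SE 0.20, adjusted p 0.000199). P2ry12 (0.82, adjusted p 0.369), Gpr34 (0.92, 0.501) and Tmem119 (0.89, 0.401) did not pass.

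The change with age was then examined within each treatment group. In the nOIR mice Cx3cr1 was lower at p17 than at p14, by a log2 fold change of -0.70 (SE 0.15, limma adjusted p 0.028), with all 6 p17 mice below all 6 p14 mice, as for 0.674% of all genes. Only 0.158% of all genes were called lower in this comparison, and Cx3cr1 was the only one of the 9 members. The call was lost without any of 7 mice (nOIR p14 S1, S3, S5 or S6, or nOIR p17 S4, S5 or S6), with adjusted p-values of 0.0541 to 0.109 and log2 fold changes of -0.70 to -0.65. It was also lost with quantile normalization (adjusted p 0.071) and with the mouse number as a block (0.0896). Fcrls had a larger estimate of -1.36 (SE 0.32) in the same mice, with all 6 p17 controls below the p14 median. It did not pass, at a limma adjusted p of 0.0553, but it passed under edgeR (0.0437) and DESeq2 (0.00177). In limma Fcrls passed with the mouse number as a block. It also passed without nOIR p14 mouse S7 (adjusted p 0.0188), nOIR p17 mouse S4 (0.0415) or OIR p17 mouse S1 (0.0462). In the OIR mice Cx3cr1 was higher at p17 than at p14 by 0.61 (SE 0.14, adjusted p 0.00523), and the Fcrls estimate was 0.63 (SE 0.30, adjusted p 0.252). Both comparisons over age share their mice with the comparisons of OIR and nOIR.

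Tmem119 was the other member called between ages in OIR mice, against 4.11% of all genes called higher. Its medians were 48.1 at p14 and 103.6 at p17, and the log2 fold change was 0.95 (SE 0.27, limma adjusted p 0.0307). The call was lost without OIR p14 mouse S1, S2, S3 or S5 or OIR p17 mouse S6 or S8, with adjusted p-values up to 0.0805. It was also lost in a fit of only the groups compared (adjusted p 0.0665), with the mouse number as a block (0.128), with quantile normalization (0.0573) and with Cryaa as a covariate (0.0919). P2ry12 was higher by 0.71 (SE 0.24) and was not called (adjusted p 0.0797), except without OIR p14 mouse S2 (0.95, adjusted p 0.00648) or OIR p17 mouse S3 (0.80, adjusted p 0.0493). All 9 estimates were above 0 in the OIR mice, from 0.16 for Siglech to 0.95 for Tmem119, and 7 of them were not called; 45.4% of all genes were above 0 and their median was -0.04. In nOIR mice 4 were above 0 and 5 below.

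The order of the members changed with the group when their levels were put on a scale per length (reads per kilobase of exon, scaled to the same total of reads in each mouse). In nOIR retinas P2ry12 had the highest level per length at both ages, with 3.07 ± 0.76 (SD, n = 6) at p14 and 2.71 ± 0.48 (SD, n = 6) at p17. In OIR p17 retinas Fcrls was highest at 5.71 ± 1.47 (SD, n = 8), followed by Cx3cr1 at 5.38 ± 0.80 (SD, n = 8), whose range overlapped with it. P2ry12 came after them at 2.95 ± 0.80 (SD, n = 8). Its range, up to 4.25, stood apart from that of Cx3cr1 but overlapped with that of Fcrls, which began at 3.47. Fcrls ranked 7 of 9 in nOIR p17 mice, at 0.74 ± 0.33 (SD, n = 6). Sall1 was lowest in all 4 groups, from 0.23 to 0.38 per length on average. Most neighbours in each order overlapped, including all of those in OIR p14 and nOIR p17 mice.

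The members were next set beside general genes of microglia and macrophages, a list of 18 that are not specific to the resting state. Of these 18, 17 were called higher in OIR retinas at p17 and 7 at p14, with median log2 fold changes of 1.83 and 0.58. The complement gene C1qb rose by a log2 fold change of 2.07, the lysosomal protein Cd68 by 2.60, the myeloid transcription factor Spi1 (PU.1) by 3.03 and the growth factor receptor Csf1r by 0.97 at p17. Itgam was the exception, at 0.63 with a limma adjusted p of 0.208. Of all genes tested, 7.39% were called higher at p17 and 3.18% at p14, and the difference between this list and the 9 members was not tested.

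**Figure D3:**
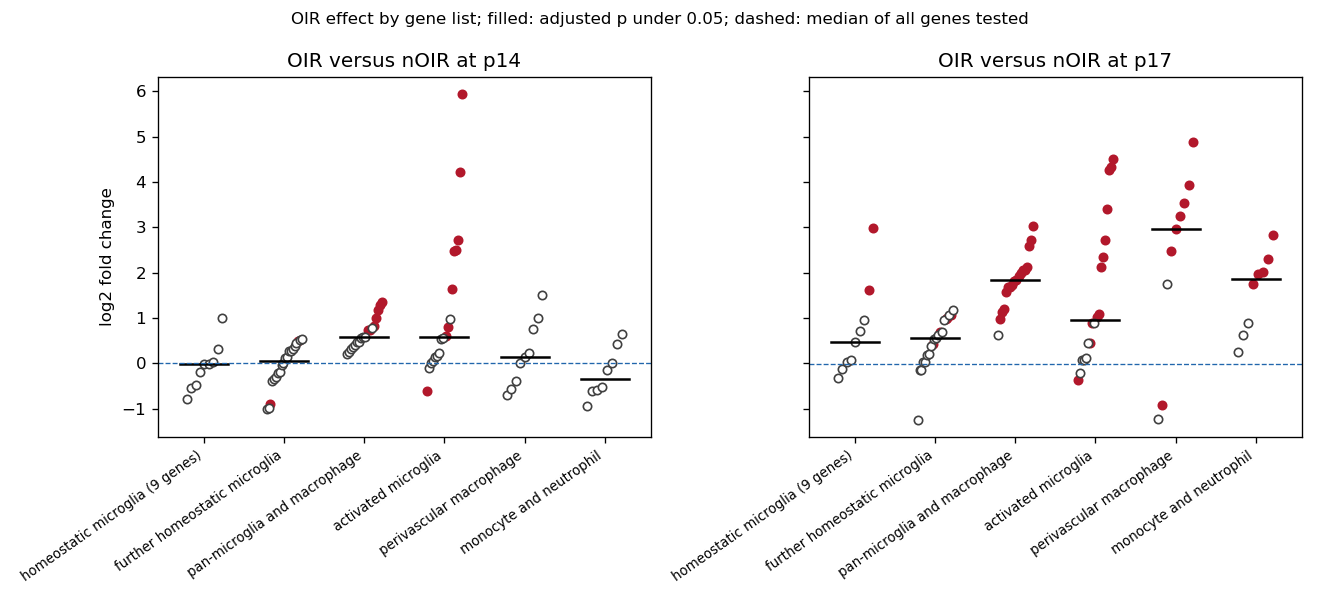
Log2 fold change of OIR against nOIR for each tested gene of 6 lists, at p14 and at p17, with filled points for a limma adjusted p under 0.05, a line at each list's median and a dashed line at the median of all genes tested. At p17 the median of the 9 homeostatic genes is 0.48 and that of the pan-microglia and macrophage genes is 1.83.

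Each member was then placed relative to the general microglia and macrophage signal of the same mouse. For this, the mean log2 level of the 18 general genes was subtracted from the log2 level of the member. This is a description with no test, and because the 18 genes rose, most genes are lower on this scale. The 18 genes are not specific to microglia, and the part of other macrophages and monocytes in their level was not tested. At p17 the relative value was lower in OIR than in nOIR mice for 8 of 9 members, as for 97.5% of all genes tested, with a median difference of -1.339 beside -1.84 over all genes. For P2ry12 it lay between 1.09 and 1.77 in nOIR and between -1.33 and 0.22 in OIR mice, and the means differed by -1.80. P2ry12, P2ry13 (-1.94) and Olfml3 (-1.74) had every OIR mouse below every nOIR mouse, as had 56.9% of all genes, so on this scale these 3 members lay near the typical gene of the retina. Siglech (-2.15), Sall1 (-1.339), Tmem119 (-1.11) and Gpr34 (-0.87) were lower with overlapping groups. Cx3cr1 differed by -0.21 with overlap.

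Fcrls was the exception among the relative values at p17. Its difference was 1.16, with -2.30 to -0.09 in nOIR mice and 0.08 to 0.73 in OIR mice, and 0.276% of all genes had every OIR mouse above every nOIR mouse on this scale. At p14 the relative values were lower in OIR mice for 8 of 9 members, as for 89.1% of all genes, with medians of -0.69 and -0.66. P2ry13 (-1.14), Siglech (-1.23) and Olfml3 (-0.68) did not overlap between the p14 groups, as for 22.2% of all genes, and P2ry12 (-1.47) overlapped through OIR mouse S2.

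The reference chosen moved these values. Against Csf1r alone the median difference of the members was -0.49 at p17 and -0.22 at p14, beside -0.99 and -0.19 over all genes. At p17 P2ry12 (-0.95) and Olfml3 (-0.89) remained without overlap, as for 33.9% of all genes, while P2ry13 (-1.09), Siglech (-1.30), Sall1 (-0.49), Tmem119 (-0.26) and Gpr34 (-0.02) overlapped. Cx3cr1 was higher against Csf1r (0.65) with overlap, so its sign depended on the reference, and Fcrls was higher (2.01) without overlap, as for 0.741% of all genes. At p14 all 9 members overlapped between the groups against Csf1r.

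**Figure D4:**
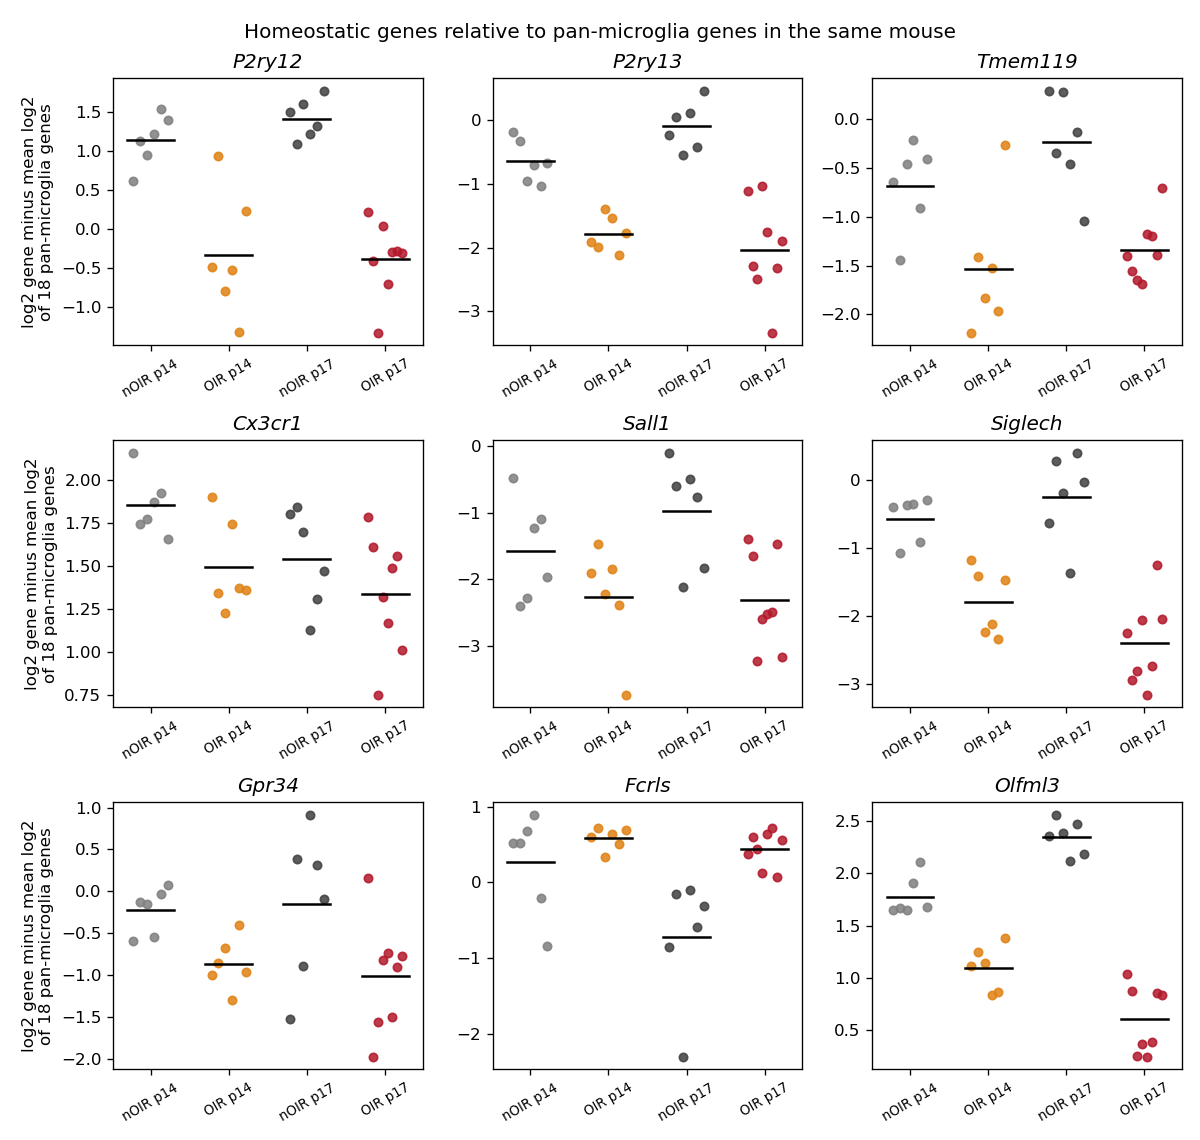
Log2 level of each of the 9 genes minus the mean log2 level of 18 pan-microglia and macrophage genes in the same mouse. The 26 mice are shown by group, with a line at the group mean. P2ry12 of the OIR p17 mice lies between -1.33 and 0.22, below all nOIR p17 mice, as for 56.9% of all genes on this scale, whereas Fcrls of the OIR p17 mice lies above them.

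A further 21 genes known from resting microglia were examined, of which 20 were tested. At p14 there were 1 called higher and 1 lower, and at p17 there were 5 called higher and 0 lower, with medians of 0.06 and 0.55. Those that rose at p17 included the transporter Slco2b1 (log2 fold change 1.08), Golm1 (1.00), the ectonucleotidase Entpd1 (0.97) and Lpcat2 (0.42). Selplg, the P-selectin ligand, fell at p14 by 0.89 on the log2 scale (limma adjusted p 0.00699) and stood at 0.03 at p17. Among 18 genes of activated microglia, 8 were called higher and 1 lower at p14 and 11 higher and 1 lower at p17. For both lists, the shares over all genes tested were 3.18% higher and 2.91% lower at p14, and 7.39% and 5.12% at p17. The chemokine Ccl4 was higher by 5.95 at p14 and 4.27 at p17, Ccl3 by 4.22 and 4.33, and Lgals3 by 2.49 and 2.72. The activated genes called lower were Apoe at p14 (-0.62, limma adjusted p 0.00611) and Igf1 at p17 (-0.36, 0.00693), so the list did not move as 1.

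The ligands and signalling partners of the members were examined as a list of 22, which shares Entpd1 with the further genes of resting microglia. At p14 there were 2 called higher and 1 lower, and at p17 there were 8 higher and 1 lower. The shares over all genes tested were 3.18% higher and 2.91% lower at p14, and 7.39% and 5.12% at p17. Cx3cl1, which encodes the fractalkine that binds Cx3cr1, was not called at p14 (log2 fold change -0.19, limma adjusted p 0.432) or p17 (-0.16, 0.429), and lay between 2455 and 4504 normalized reads in OIR p17 mice against 3317 to 3955 in nOIR p17 mice. The receptor and its ligand gene therefore differed in their calls at p17, while neither was called at p14. Csf1, a growth factor for microglia, was higher at both ages, by 1.12 (adjusted p 0.00153) and 1.17 (0.000146). Il34, the other ligand of the same receptor, was not called at p14 (-0.49, adjusted p 0.103) or p17 (0.41, 0.112).

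Transforming growth factor signals maintain the homeostatic program, and these genes were part of the same list. Tgfb1 was not called at p14 (0.36, limma adjusted p 0.501) and was higher at p17, by 1.95 (adjusted p 1.73e-07), with 33.4 to 70.6 reads in nOIR and 144.9 to 267 in OIR mice. Tgfb2 was higher at both ages, by 0.51 and 0.39. The receptor Tgfbr2 fell at p14 by 1.01 on the log2 scale (adjusted p 0.00218) and rose at p17 by 1.04 (adjusted p 0.000289). Nrros, a myeloid protein that binds latent transforming growth factor, was higher at p17 by 1.17, and Pla1a, which makes lysophosphatidylserine, by 3.03. Of the enzymes that process extracellular nucleotides, Entpd1 was higher at p17 by 0.97 and Nt5e lower by -0.28 (adjusted p 0.00402).

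Of 12 genes of the P2Y receptor family and the P2ry12 locus, 1 was called higher at p14 and 2 at p17, and 0 were called lower. The 12 include the members P2ry12, P2ry13 and Gpr34, which were not called. Among all genes tested, 3.18% were called higher and 2.91% lower at p14, and 7.39% and 5.12% at p17. P2ry6, a receptor for UDP linked to phagocytosis, rose at p17 by 2.80 (limma adjusted p 8.39e-06) and P2ry2 by 1.61 (adjusted p 0.0227), and P2ry2 also rose at p14 by 1.74 (adjusted p 0.0376). Gpr171 (0.02) and P2ry14 (-0.20), neighbours of P2ry12 on chromosome 3, were not called at p17.

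Markers of other cells moved with OIR at p17, when 7.39% of all genes tested were called higher and 5.12% lower. Of 9 genes of perivascular macrophages, 6 were called higher and 1 lower at p17 and 0 at p14, with summed levels of 820.4 to 985.1 in nOIR p17 and 930.1 to 1354 in OIR p17 mice. Lyve1 and Stab1 had most of these reads, with means of 822 and 68.3 in nOIR and 437 and 397 in OIR p17 mice. Lyve1 was lower at p17 (-0.92), whereas the scavenger receptors Cd163 (3.54) and Mrc1 (3.26) were higher, from levels of 0 in 4 and 2 of the 6 nOIR p17 mice to a mean of 21.8 ± 20.3 and 56.4 ± 24.4 (SD, n = 8) in OIR mice. Of 11 monocyte and neutrophil genes 8 were tested, and 5 were called higher at p17. Their summed level was 57.7 to 108.8 in nOIR p17 and 104.2 to 174 in OIR p17 mice, and the monocyte receptor Ccr2 was at 0 in all 6 nOIR p17 mice and in 1 of 8 OIR p17 mice, with at most 20.9 reads. Of 9 lymphocyte genes 6 were tested and 0 were called at either age. Cx3cr1 is also expressed by monocytes, and the part of these cells in its level was not tested. At p17 the log2 fold change of Fcrls (2.98) lay near the median of the perivascular macrophage genes (2.96, range -1.22 to 4.87). The part of these macrophages in the level of Fcrls was not tested.

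The 4 hemoglobin genes were called higher at p17, with summed levels of 142.4 to 1104 in nOIR and 1084 to 16610 in OIR mice, and 0 of 4 were called at p14. The mice had been perfused with saline before the retinas were taken. The 4 genes of dividing cells were called higher at both ages, from 5.51 to 47.8 summed reads in nOIR p17 to 555 to 919.8 in OIR p17 mice. Of 4 rod genes 1 was called lower at p14 and 2 at p17, with medians of -0.28 and -0.23. The 4 lens genes were not called at either age and varied from 8.88 to 28650 summed reads between mice. The part of blood, dividing cells and lens RNA in the levels of the 9 members was not tested.

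Finally, the genes whose pattern was closest to P2ry12 were sought over the 26 mice, by the mean absolute difference of centred log2 levels, among the 19003 genes whose mean reached 10 normalized reads. The closest were Ankrd29 (0.29), Rasgrp2 (0.29), Nkiras1 (0.30), Lhfp (0.30) and Qrfpr (0.31). No other member was among them. Olfml3 was nearest of the members at rank 1346 and a distance of 0.39, and Fcrls was farthest at rank 18431 and a distance of 1.19. Genes with little spread between mice are favoured by this measure, and the points are mice of 4 groups that share their treatment, so the ranking is a description.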

How the data were processed

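Retinal RNA of 27 mice was sequenced by the authors, with SMARTer v4 cDNA and Nextera libraries. Per the study's methods and the submitters' processing notes, the authors checked reads with FastQC 0.73, mapped them with STAR 2.7.8a, counted them without strand with featureCounts 2.0.1 on Gencode genes and normalized them with DESeq2 1.34 in R 4.0.3. The deposited table holds a signal in normalized reads, where the authors divided the gene counts of each mouse by its size factor. It also holds the authors' means, log2 fold changes and adjusted p-values, which were not used.

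Each mouse's deposited values were whole multiples of 1 step (100% within a tolerance of 0.001), which gave whole reads and the depth. In 3 mice (nOIR p14 S4, OIR p14 S3 and OIR p17 S4) 1 step was close to 1, where whole reads cannot be told from rounded values, and their reads entered edgeR and DESeq2 like the others. PCR copies were not removed, so reads are not independent molecules. Main tests used log2(value + 1) in limma 3.58.1 with a trend (R 4.3.3), on 27137 genes with a mean of at least 1, in 26 mice of 4 groups fitted at once, with Benjamini-Hochberg adjustment over all genes. Fold changes are on the log2(value + 1) scale, which understates those of low genes. Single genes were also tested by exact two-sided permutation of the difference of mean log2 levels (scipy 1.17.1). No pair of libraries was a copy. The steps were tested on simulated data.

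Alternatives were a pseudocount of 0.1, other filters (genes above 0 in any mouse, or a mean of at least 10), inclusion of mouse S4, a fit of only the groups compared, mouse number, log2 Xist or log2 Cryaa as a term, rescaling to the same total, quantile normalization, an adjusted p under 0.01, edgeR 4.0.16 and DESeq2 1.42.0 on recovered reads, and leaving out each mouse in turn. The 9 members and all lists were chosen with earlier results of these data known. All 9 members were named. From each other list the defining genes or those called at p14 or p17, up to 5 by adjusted p, were named, and Cx3cl1, Csf1, Il34 and Tgfb1 in any case. Itgam, Selplg, Apoe, Igf1, Pla1a, Nrros, Nt5e, Med12l, Gpr171 and P2ry14 were named after their values were seen, as exceptions or to complete a count. Exon lengths are from a Gencode annotation of GRCm38 and promoters from RefSeq; the sequenced reads had been mapped to another build, so no gene positions were taken from it. Litter and sex were not modelled. Some genes of the lists are not reported here by name.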

Additional observations from a re-analysis of the deposited data

Results flagged for a closer look

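The highest OIR p14 mouse for P2ry12, S2, had 282.4 normalized reads, and its gap to the next mouse was 0.636 of the whole range of the group. The highest OIR p17 mouse for Tmem119, S8, had 203.1 normalized reads, with a gap of 0.562 of the range. Both stood out by Dixon's criterion among 36 sets of mice examined (9 genes in 4 groups), a criterion that chance meets in about 1 set in 20.

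The OIR effect differed between p17 and p14 for 2 members by a limma contrast in the same fit. For Cx3cr1 the effect at p17 minus that at p14 was 1.308 on the log2 scale (adjusted p 0.000199), and for Fcrls it was 1.994 (adjusted p 0.0105).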

How the results depend on the processing

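The p17 calls of Fcrls and Cx3cr1 kept their direction and stayed past the threshold under all 13 other settings and without any of the 26 mice. Of 1746 member values under other settings, 1650 kept direction and side of the threshold, 30 passed in addition, 22 no longer passed and 44 changed sign. The causes were not tested.

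At p14 the number of members called higher was 1 instead of 0 (Fcrls) with mouse S4 included, in a fit of only the groups compared, with the same total per mouse and under DESeq2. Leaving out a mouse gave 0 to 1 members higher and 0 to 1 lower at p14, 2 to 3 higher at p17, 2 higher in the difference of effects, 1 to 3 higher over age in OIR mice and 0 to 2 lower over age in nOIR mice. At an adjusted p under 0.01 the difference of effects was called for 1 member (Cx3cr1), OIR mice over age for 1 and nOIR mice over age for 0. Over age in OIR mice, 1 member rather than 2 was called in a fit of only the groups compared, with the replicate block, with quantile normalization and with Cryaa as a covariate. Over age in nOIR mice, 2 members were called lower with a mean of at least 10, with S4 included, with the same total per mouse, under edgeR and under DESeq2, and 0 with quantile normalization.

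Sign changes were as follows. Sall1 at p14 was 0.16 with S4 included, 0.027 with the same total, 0.046 with Cryaa, 0.060 under edgeR and 0.061 under DESeq2, and -0.20 to 0.35 without single mice. Gpr34 at p14 was -0.059 with quantile normalization and -0.093 to 0.119 without single mice. Olfml3 at p14 was 0.039 with the same total and -0.085 to 0.049 without single mice. P2ry12 at p17 was -0.111 with quantile normalization and -0.052 to 0.112 without single mice, and P2ry13 at p17 was -0.272 to 0.054 without single mice. Over age, Tmem119 in nOIR mice was -0.005 with S4 included, -0.12 with Cryaa and -0.11 to 0.21 without single mice; Siglech was -0.014 to 0.307 in OIR and -0.22 to 0.12 in nOIR mice, and Gpr34 in nOIR mice -0.549 to 0.015.

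Mice with the same number in different groups correlated between -0.108 and 0.161 in their deviations from the group means, so the numbers were not taken to pair the mice. With the replicate block, P2ry12 at p17 was -0.072, Olfml3 0.035 at p14, -0.023 at p17 and -0.058 in the difference of effects, and Siglech -0.19 in the difference of effects, -0.082 over age in OIR mice and 0.11 over age in nOIR mice. With the block, Tmem119 over age in OIR mice (adjusted p 0.128) and Cx3cr1 over age in nOIR mice (0.0896) were not called and Fcrls over age in nOIR mice was (0.0449).

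Of all genes tested, 1652 were called at p14 (848 at an adjusted p under 0.01), 3395 at p17 (2243), 429 in the difference of effects (217, 269 with the block, 690 under DESeq2), 1605 over age in OIR mice (840, 1018 with only the groups compared) and 86 over age in nOIR mice (31, 187 with only the groups compared, 236 under DESeq2, 34 to 131 without single mice). Sall1, with 8.24 to 96.0 reads per mouse, had the widest confidence intervals of the members.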
